A study of Homo sapiens with 24 samples.

Results

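The transcripts of the proteasome, the complex that breaks down ubiquitin-tagged proteins, were followed through knockdown of the transcription factors FOXA1 and ZBED2 in 2 bladder cancer cell lines. The members are the genes whose symbol begins with PSM, goes on with a letter from A to G and ends in a number, without the immunoproteasome genes PSMB8 and PSMB9. There are 46 of them among 58721 genes in the deposited count table, of which 24600 genes have a count in any library. The filter on low counts kept 43 members in each line and left out PSMA8, PSMB10 and PSMB11, which had 1, 50 and 4 counts over all 24 libraries. The rule uses names alone, but it was chosen with earlier results of these data known.

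Proteins marked with chains of ubiquitin are bound by the 19S cap, unfolded by its ring of ATPases and fed into the 20S core. The core is a barrel of stacked rings of alpha (PSMA) and beta (PSMB) subunits, and PSMB5, PSMB6 and PSMB7 carry its chymotrypsin-like, caspase-like and trypsin-like cutting sites. The cap consists of ATPases (PSMC) and non-ATPase subunits (most PSMD genes), while PSMD5, PSMD9 and PSMD10 encode chaperones of its base and PSMG1 to PSMG4 encode chaperones that build the alpha ring. PSME1 and PSME2 form the interferon-inducible activator PA28, PSME3 encodes PA28 gamma, PSME4 encodes PA200 and PSMF1 encodes the inhibitor PI31. When proteasome activity falls short, the transcription factor NFE2L1 is known to raise many of these genes together, whereas the catalytic subunits PSMB8, PSMB9 and PSMB10 replace the standard ones in cells that see interferon.

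The libraries came from RT112, a line of luminal papillary type grown in RPMI with serum, and SCaBER, a line of basal/squamous type grown in DMEM with serum. In each line 6 siRNA treatments were applied with Lipofectamine RNAiMax, namely siControl (control siRNA number 2), siZBED2-1, siZBED2-2, siFOXA1 and the double knockdowns siFOXA1+siZBED2-1 and siFOXA1+siZBED2-2. Every group held 2 libraries, numbered by experiment batch, and the labels name a single FOXA1 siRNA, so an effect of FOXA1 loss and an effect of that siRNA alone cannot be told apart. Nothing in the labels says more about how the 2 libraries of a group were raised, so the p-values measure the spread between these samples. RNA was counted by 3′ end sequencing. The files hold raw counts, given here as CPM, the counts scaled to a common library size by the trimmed mean of M-values (TMM). A gene was called when its adjusted p in edgeR's quasi-likelihood test, corrected over all genes of the fit, was below 0.05. Changes are log2 differences, so a change of 1 is a doubling on that scale.

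FOXA1 was lower in the libraries that received its siRNA. In RT112 it stood at 31.5 to 57.0 CPM in the 6 libraries without the siRNA and 4.04 to 15.7 CPM in the 6 with it. SCaBER cells held little FOXA1 to begin with, 0.185 to 5.51 CPM without and 0 to 1.36 CPM with the siRNA. The library labelled SCaBER siZBED2-1 replicate 2 goes against its label on this point, with 1 FOXA1 count where the other 5 SCaBER libraries without the siRNA had 14 to 28. Counts of calls that use it are therefore also given without it. ZBED2 stood at 22.1 and 16.9 CPM in RT112 siControl, 2.38 and 0 CPM under siZBED2-1, 7.34 and 6.30 CPM under siZBED2-2 and 5.46 and 1.52 CPM under siFOXA1. In SCaBER the ZBED2 values were 18.9 and 18.9 CPM under siControl, 2.41 and 7.39 CPM under siZBED2-1 and 8.74 and 15.8 CPM under siZBED2-2, the last value lying close to the controls.

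Total counts ran from 4425404 to 5207195 per RT112 library and from 4519668 to 6119210 per SCaBER library, and the members took 0.780 to 0.902% and 0.848 to 0.992% of them. The labelled lines were checked by their markers, among them the luminal factor GATA3 (271 to 666 CPM in RT112, 6.83 to 12.7 in SCaBER) and the basal keratin KRT6A (0.213 to 29.9 CPM in RT112, 878 to 1878 in SCaBER). Of the basal list KRT16 (10.1 to 59.3 CPM in RT112, 14.0 to 47.8 in SCaBER) and TP63 (3.65 to 34.98 CPM in RT112, 10.8 to 24.3 in SCaBER) did not part the lines, and the umbrella-cell genes KRT20 and UPK3A were at 0 in 10 and 9 of the 12 RT112 libraries. The luminal genes KRT18 (648 to 1422 CPM in RT112, 415 to 834 in SCaBER) and GRHL3 (0 to 2.77 and 0 to 1.85 CPM) also overlapped. FOXA1, the target of the siRNA, overlapped over all libraries (4.04 to 57.0 CPM in RT112, 0 to 5.51 in SCaBER). It did part the lines among the libraries without its siRNA (31.5 to 57.0 CPM in RT112, 0.185 to 5.51 in SCaBER). Genes of the mitochondrial genome took 8.22 to 17.8% of RT112 counts without and 18.6 to 22.7% with the FOXA1 siRNA, against 9.55 to 12.0% and 9.29 to 12.9% in SCaBER. Summed counts of 9 markers of other cell types were higher with the FOXA1 siRNA, at 47 to 151 counts per library without and 182 to 276 with it in RT112, and 41 to 60 without and 69 to 94 with it in SCaBER. Most of these counts were COL1A1 (23 to 123 against 172 to 265 in RT112, 18 to 37 against 40 to 69 in SCaBER), COL3A1 and DES were at 0 in every library, CD3E was at 0 in 11 RT112 and 12 SCaBER libraries and PTPRC in 10 and 11. The part of these shifts in the results below was not tested, apart from the fits without mitochondrial genes. In bulk RNA, fewer cells of a kind and less RNA per cell cannot be told apart.

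In siControl cells PSMA7, which encodes an alpha subunit, was the most abundant member in both lines, at 1279 ± 74.2 CPM (SD, n = 2) in RT112 and 848 ± 1.33 CPM (SD, n = 2) in SCaBER. The next was PSMD2, a large scaffold subunit of the cap base, at 502 ± 21.4 CPM (SD, n = 2) and 719 ± 23.2 CPM (SD, n = 2). Per transcript length, on the deposited TPM scale, PSMA7 was again the highest, at 1616 in RT112 and 1264 in SCaBER, followed by PSMB1 at 324 in RT112 and PSMB4 at 441 in SCaBER. The median of the 43 members was 154 CPM in RT112 and 167 CPM in SCaBER. The lowest was the base chaperone PSMD9 at 3.43 and 3.80 CPM, with 525 counts in all 24 libraries, the fewest of the tested members.

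The lines differed in how much of single subunits they expressed. Of the 43 members, 14 were called higher in SCaBER than in RT112 under siControl and 4 lower, against 17.2% and 16.4% of all genes called in these directions, and the median difference was 0.17 over members and −0.0003 over all genes. PSMD13, a subunit of the cap's lid, stood at 114 and 103 CPM in RT112 and 245 and 207 CPM in SCaBER, a difference of 1.06 (SE 0.16, edgeR adjusted p = 1.5e-06). The alpha subunit genes PSMA3 (1.098), PSMA5 (1.18), PSMA2 (1.01) and PSMA6 (1.5) were also called higher in SCaBER, PSMA6 with few counts (1119 in all). So were the beta subunit genes PSMB4 (0.61), PSMB7 (0.49), PSMB6 (0.45) and PSMB2 (0.36), the cap genes PSMD2 (0.52), PSMD11 (0.53) and PSMD4 (0.47), the chaperone gene PSMD5 (0.60) and the activator gene PSME2 (0.73).

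PSMA7 went the other way, from 1227 and 1332 CPM in RT112 to 848 and 847 CPM in SCaBER, a difference of −0.59 (SE 0.11, edgeR adjusted p = 3.1e-05). The other members called lower in SCaBER were PSMD14 (−0.66), PSMC3 (−0.68) and PSMG1 (−0.68), which encode the deubiquitinase of the lid, a cap ATPase and an alpha-ring chaperone. With 1 siControl library left out at a time, 10 to 14 members were called, the fewest without RT112 siControl replicate 2, and PSMA3, PSMA5, PSMA7, PSMB4, PSMD13, PSMD14 and PSMD2 were called in all 4 such fits. On log2(TPM + 1) 18 members were called higher and none lower, with the median over all genes at 0.18 in place of −0.0003. Of all genes called, 65.7% were higher on that scale, against 51.1% with TMM. The cell medium also differed between the lines and cannot be told apart from the line.

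**Figure D1:**
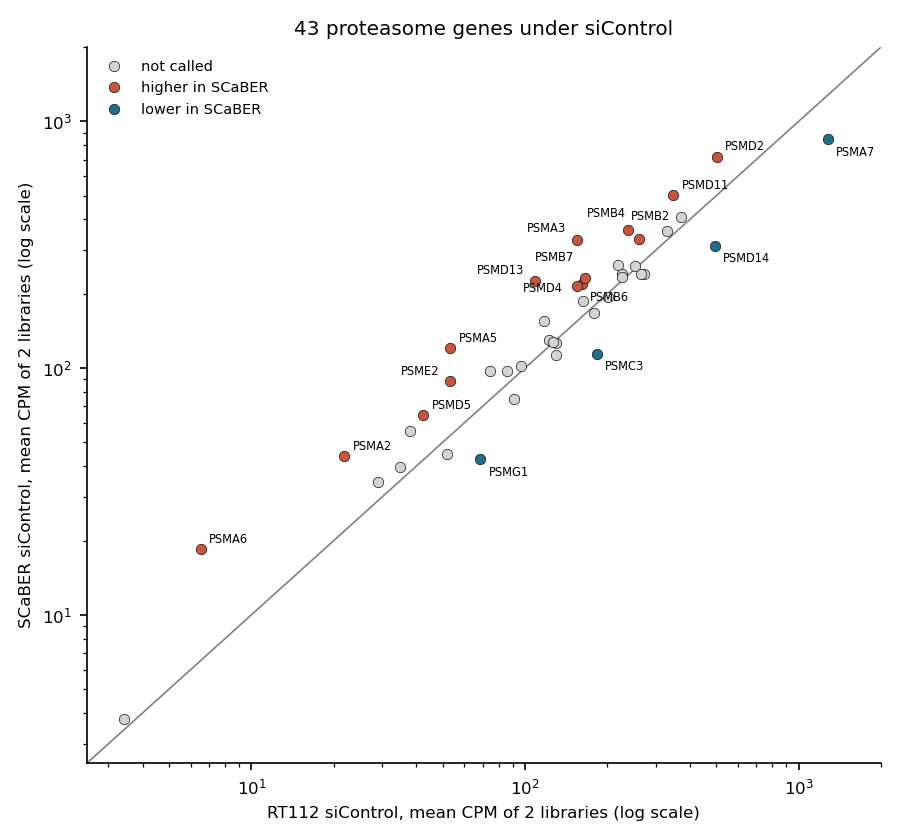
Mean CPM of the 43 tested members under siControl in RT112 (horizontal, log axis) against SCaBER (vertical, log axis), each point 1 gene as the mean of 2 libraries, with called genes coloured by direction and the diagonal marking equal levels. PSMA7 lies farthest to the right, below the diagonal, at 1279 CPM in RT112 and 848 in SCaBER, while PSMD13 lies above it at 109 and 226.

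To follow the FOXA1 siRNA, siFOXA1 was set against siControl, and the 6 libraries with the siRNA, on any ZBED2 background, were set against the 6 without it. The second contrast holds the first within it, so the 2 share libraries. In RT112 ZBED2 was also lower under siFOXA1 (5.46 and 1.52 CPM) than under siControl (22.1 and 16.9 CPM). Neither RT112 contrast therefore holds ZBED2 fixed, and in siFOXA1 against siControl less FOXA1 and less ZBED2 cannot be told apart. In RT112 the siFOXA1 contrast called 4 members higher, 11.3% of all genes being called higher, and 4 lower, 11.9% of all genes being called lower. Over the 3 ZBED2 states 11 members were called higher and 5 lower, beside 16.7% and 17.0% of all genes. The 11 higher calls are a larger share of the 43 members than of all genes, and the 5 lower calls a smaller one. For siFOXA1 alone both shares of the members were below those of all genes. The part of expression level in these shares was not tested. The median change was 0.07 for members and −0.01 for all genes under siFOXA1, and 0.03 and −0.01 over the 3 states.

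Most genes of the beta subunits rose in RT112. Over the 3 states 5 of 7 beta genes were called higher and none lower, with a median change of 0.35. PSMB5 (chr14:23025851-23035220 on GRCh38.p14), the chymotrypsin-like subunit, was at 249.8 and 255 CPM under siControl and 401 and 378 CPM under siFOXA1, a change of 0.61 (SE 0.13, edgeR adjusted p = 0.0011). Over all RT112 libraries PSMB5 ranged from 249.8 to 308 CPM (median 266) in the 6 libraries without the FOXA1 siRNA and 363 to 421 CPM (median 389.5) in the 6 with it, with no overlap, and changed by 0.52 (SE 0.08, edgeR adjusted p = 6.1e-06). The gap was present on each ZBED2 background, at 0.62 with no ZBED2 siRNA, 0.53 with siZBED2-1 and 0.41 with siZBED2-2 (log2 ratios of mean CPM).

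The other catalytic subunits had changes in the same direction. PSMB7 was at 173 and 158 CPM under siControl and 233 and 251 CPM under siFOXA1 (0.53, SE 0.14, edgeR adjusted p = 0.0073). Over the 3 states PSMB7 changed by 0.39 (SE 0.08, edgeR adjusted p = 4.8e-04), and its libraries with and without the siRNA did not overlap. On the separate backgrounds the PSMB7 difference was 0.54 with no ZBED2 siRNA, 0.59 with siZBED2-1 and 0.06 with siZBED2-2 (log2 ratios of mean CPM). PSMB6 was at 162 and 159.6 CPM under siControl and 223 and 191 CPM under siFOXA1, a difference of 0.35 (SE 0.17, edgeR adjusted p = 0.14) that did not pass on its own, and at 0.35 (SE 0.10, edgeR adjusted p = 0.0067) over the 3 states it did. PSMB1, a structural beta subunit, went from 309 and 350.3 CPM under siControl to 463 and 469.6 CPM under siFOXA1 and was also without overlap over the 12 libraries, at 0.40 ± 0.08 (SE, edgeR adjusted p = 6.5e-04). PSMB3 was called over the 3 states (0.28), and the 2 beta genes not called, PSMB2 and PSMB4, had changes of −0.02 and 0.12.

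Of the 7 alpha subunit genes tested, edgeR called 1 over the 3 states, PSMA2, at 0.54 (SE 0.20, edgeR adjusted p = 0.037), and PSMA7, the most abundant member, had a change of −0.14 (SE 0.07, edgeR adjusted p = 0.11). The siFOXA1 contrast alone gave −0.30 (SE 0.11, edgeR adjusted p = 0.060) for PSMA7, which the fit with the experiment batch as a block called (−0.30, adjusted p = 0.039). PSMA7 was also called in that contrast by DESeq2 (−0.29, adjusted p = 0.019), with mitochondrial genes left out (−0.29, adjusted p = 0.032 in edgeR) and with library totals alone, and PSMA3 with library totals alone and on log2(TPM + 1), all of them lower.

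Genes of the 19S cap moved in both directions in RT112. By edgeR none of the 6 ATPase genes was called, with changes over the 3 states between −0.15 and 0.23, although PSMC2 was called by DESeq2 (0.23, adjusted p = 0.039), with mitochondrial genes left out (0.23, adjusted p = 0.047 in edgeR) and with the batch as a block (0.23, adjusted p = 0.037, edgeR). Of 11 non-ATPase genes 3 were called lower and 2 higher. PSMD8, a subunit of the lid, fell from 182 and 177 CPM under siControl to 114 and 119 CPM under siFOXA1, a change of −0.63 (SE 0.15, edgeR adjusted p = 0.0030). PSMD8 ranged from 166 to 208 CPM (median 180.0) in the 6 libraries without the FOXA1 siRNA and 114 to 153 CPM (median 126) in the 6 with it, without overlap, and changed by −0.50 (SE 0.09, edgeR adjusted p = 5.8e-05).

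The base scaffold genes fell as well. PSMD2 was at 517 and 487 CPM under siControl and 371 and 342 CPM under siFOXA1 (−0.51, SE 0.13, edgeR adjusted p = 0.0062), and over the 3 states it changed by −0.37 (SE 0.08, edgeR adjusted p = 4.8e-04). Its ranges with and without the siRNA overlapped, at 342 to 453 and 448 to 552 CPM. PSMD1 changed by −0.31 (SE 0.08, edgeR adjusted p = 0.0023) and did not overlap. The lid genes called higher were PSMD12 (0.30) and PSMD13 (0.27, reversing to −0.01 on the TPM scale), and the base chaperone PSMD5 was called at 0.35.

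The largest change of any member in RT112 was in PSMG2, the partner of PSMG1 in the chaperone pair that starts the alpha ring. PSMG2 (chr18:12658738-12725740) fell from 49.1 and 54.7 CPM under siControl to 16.2 and 24.8 CPM under siFOXA1, a change of −1.36 (SE 0.27, edgeR adjusted p = 6.0e-04). It ranged from 46.1 to 54.7 CPM (median 52.2) in the 6 libraries without the FOXA1 siRNA and 16.2 to 30.02 CPM (median 24.5) in the 6 with it, so that every library with the siRNA was below every library without it, and the change over the 3 states was −1.18 (SE 0.16, edgeR adjusted p = 1.5e-06). On the separate backgrounds it was −1.34 with no ZBED2 siRNA, −1.36 with siZBED2-1 and −0.82 with siZBED2-2 (log2 ratios of mean CPM). PSMG3 was called lower over the 3 states (−0.38, SE 0.11, edgeR adjusted p = 0.010), and PSMG1 and PSMG4 had changes of −0.25 and −0.26 that did not pass. PSMG2 overlaps SPIRE1 and CEP76 in the RefSeq annotation, and reads in a shared stretch could be given to either gene where strand does not part them. Of the 46 members 19 overlap another RefSeq gene, among them PSMB7, PSMD1, PSMD13, PSME2 and PSMF1.

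Both genes of the PA28 activator rose in RT112. PSME1 was at 198 and 255 CPM under siControl and 335 and 333 CPM under siFOXA1 (0.55, SE 0.14, edgeR adjusted p = 0.0062), and its libraries with and without the siRNA did not overlap. PSME2 was at 38.2 and 68.5 CPM under siControl and 86.7 and 76.4 CPM under siFOXA1, which was not called (0.60, SE 0.26, edgeR adjusted p = 0.11) unless siControl replicate 2 was left out (1.07, adjusted p = 0.015 in edgeR), and was called over the 3 states (0.54, SE 0.15, edgeR adjusted p = 0.0077). PSME1 changed by 0.36 (SE 0.08, edgeR adjusted p = 0.0013) over the 3 states. PSME3, PSME4 and PSMF1 were not called over the 3 states, at 0.01, −0.03 and 0.23. Of the 12 fits that left out 1 library, 1 called PSMF1, that without siFOXA1 replicate 1 (0.31, adjusted p = 0.019 in edgeR).

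Of the 43 members, PSMB1, PSMB5, PSMB7 and PSME1 lay higher and PSMD1, PSMD8 and PSMG2 lower in all 6 RT112 libraries with the siRNA than in any of the 6 without it, and such gaps were seen in 5.27% and 5.55% of all genes tested. Of the 16 calls over the 3 states, 11 held in each of the 12 fits that left out 1 library (PSMB1, PSMB5, PSMB6, PSMB7, PSMD1, PSMD2, PSMD8, PSME1, PSME2, PSMG2 and PSMG3). PSMA2, PSMB3, PSMD5, PSMD12 and PSMD13 did not, reaching adjusted p-values of 0.14, 0.12, 0.18, 0.061 and 0.19 in edgeR. Of the 8 siFOXA1 calls, PSMB5, PSMD8 and PSMG2 held in all 4 such fits, and 4 calls were left without siControl replicate 1 or without siFOXA1 replicate 2. Without siControl replicate 1 the adjusted p in edgeR was 0.16 for PSME1, 0.14 for PSMB1 and 0.057 for PSMD2, and without siControl replicate 2 it was 0.12 for PSMB7. Without siFOXA1 replicate 2 it was 0.064 for PSMB1, 0.069 for PSMB7 and 0.077 for PSMD2, and PSMD1 was lost in 3 of these fits.

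The split between higher and lower calls in RT112 depended on the scale. With library totals alone the 3-state contrast called 5 members higher and 7 lower and the siFOXA1 contrast 3 and 6, the medians over all genes being −0.11 in both. On log2(TPM + 1) it called none higher and 10 lower, and 0 and 5 for siFOXA1, with medians over all genes of −0.23 and −0.26. The calls over all genes shifted too. Of all genes called over the 3 states and under siFOXA1, 37.9% and 38.6% were higher with library totals alone. On log2(TPM + 1) these shares were 18.0% and 18.3%, against 49.5% and 48.6% with TMM, so the shift was not particular to the members. Relative to the median over all genes, each of the 16 and of the 8 called members kept its side under every scaling tried. A change of scaling moves all genes of a library together, so this is no separate support for the calls. With mitochondrial genes left out before scaling, 12 members were called higher and 5 lower over the 3 states, the 16 calls among them. Of all genes called in that fit, 49.5% were higher.

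**Figure D2:**
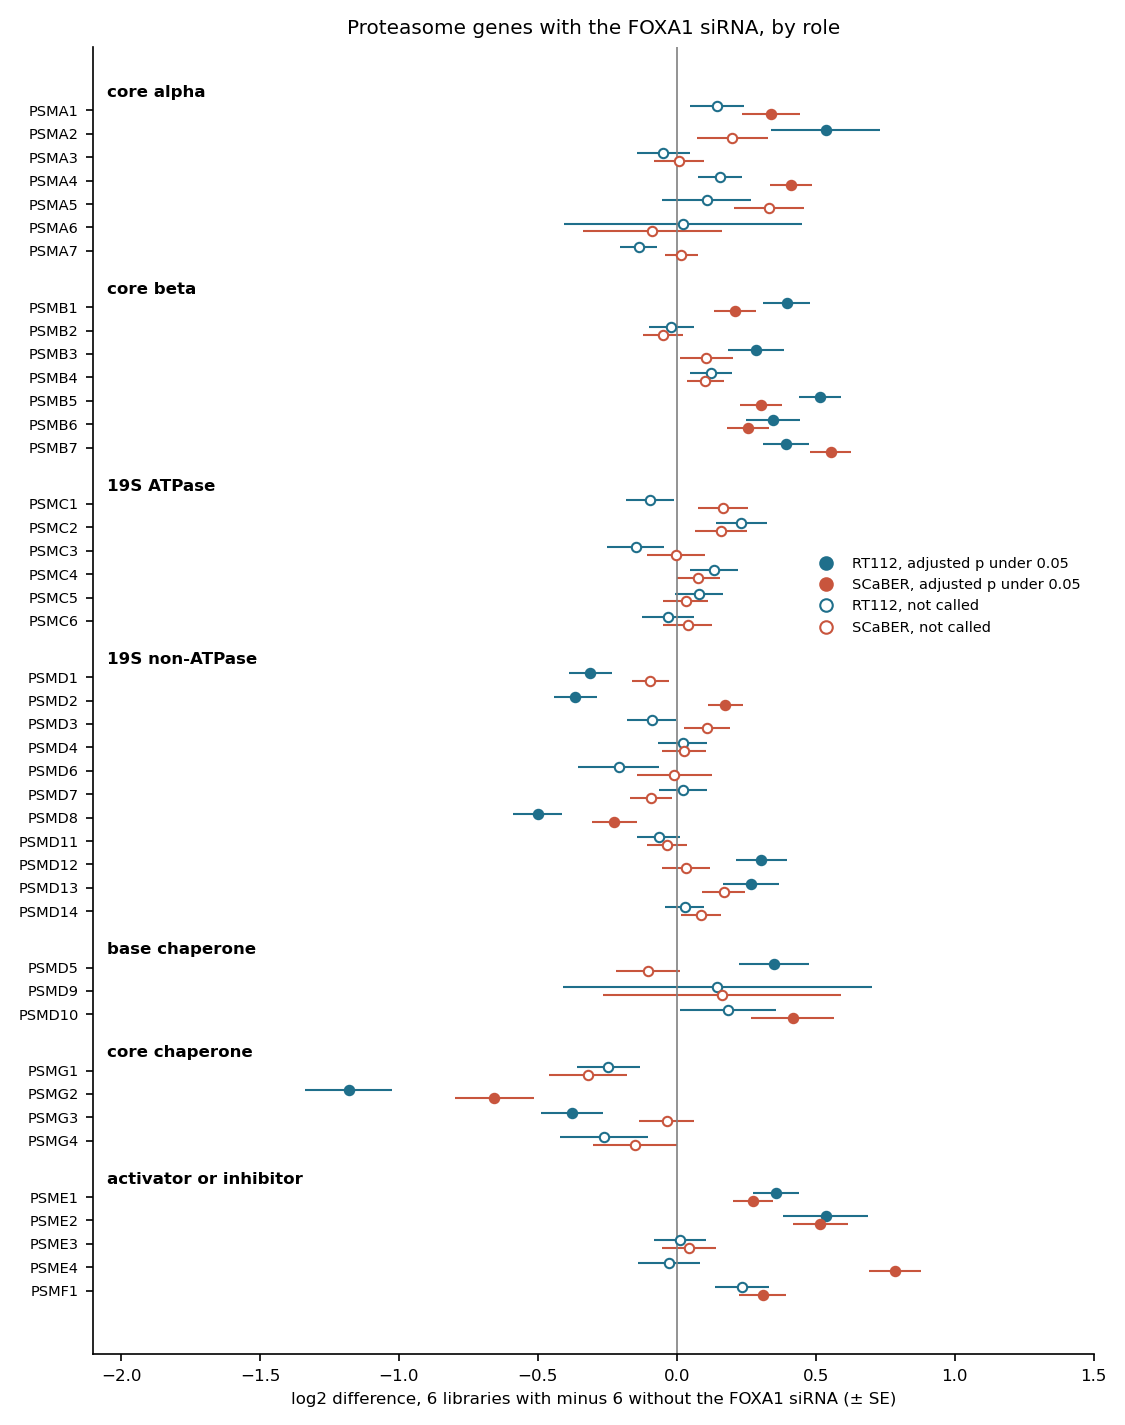
Log2 change with the FOXA1 siRNA over the 3 ZBED2 states (horizontal axis) for the 43 tested members, grouped by role, in RT112 and SCaBER, with bars of 1 SE and filled points for genes called in edgeR. The beta genes lie mostly to the right in both lines, PSMG2 lies farthest to the left (−1.18 in RT112, −0.66 in SCaBER) and PSME4 lies at 0.78 in SCaBER and −0.03 in RT112.

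In SCaBER the siFOXA1 contrast called 6 members higher and 2 lower, beside 8.71% and 9.12% of all genes. Over the 3 ZBED2 states 12 were called higher and 2 lower, beside 12.1% and 12.0% of all genes. In both SCaBER contrasts the higher calls are a larger share of the 43 members than of all genes, and the lower calls a smaller one. The median change was 0.03 for members and −0.02 for all genes under siFOXA1, and 0.09 and −0.01 over the 3 states. Without the library labelled siZBED2-1 replicate 2, PSMB1, PSMD2, PSMD8 and PSMD10 were no longer called over the 3 states. The share of all genes called in that fit is not given here, so this loss is not read as a result about the members.

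PSME4, which encodes the activator PA200, had the largest change of the members called in SCaBER. PSME4 (chr2:53864069-53970993) was at 101 and 93.9 CPM under siControl and 224 and 203 CPM under siFOXA1, a change of 1.11 (SE 0.16, edgeR adjusted p = 3.5e-06). In the double knockdowns it was at 172 and 150.3 CPM with siZBED2-1 and 146 and 135 CPM with siZBED2-2. All 6 libraries with the FOXA1 siRNA were above the 6 without it, which ranged from 76.2 to 110.4 CPM, and the change over the 3 states was 0.78 (SE 0.09, edgeR adjusted p = 5.9e-08). On the separate backgrounds the difference was 1.13 with no ZBED2 siRNA, 0.64 with siZBED2-1 and 0.60 with siZBED2-2 (log2 ratios of mean CPM).

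The PA28 genes and the inhibitor gene rose too, so that 4 of the 5 activator and inhibitor genes were called higher in both contrasts, with median changes of 0.60 and 0.31. PSME1 was at 245 and 224 CPM under siControl and 357 and 352 CPM under siFOXA1 (0.58, SE 0.13, edgeR adjusted p = 0.0010). PSME2 was at 90.6 and 86.6 CPM under siControl and 142 and 141 CPM under siFOXA1 (0.66, SE 0.17, edgeR adjusted p = 0.0051). PSMF1 was at 108 and 95.7 CPM under siControl and 162 and 150.3 CPM under siFOXA1 (0.60, SE 0.15, edgeR adjusted p = 0.0040), a call lost without siControl replicate 2 (adjusted p = 0.068 in edgeR). Over the 3 states these 3 genes changed by 0.27, 0.52 and 0.31, the last not called without siZBED2-1 replicate 1 (0.25, adjusted p = 0.055 in edgeR). On the separate backgrounds the PSME1 difference was 0.59 with no ZBED2 siRNA, 0.19 with siZBED2-1 and 0.05 with siZBED2-2 (log2 ratios of mean CPM), and that of PSMF1 was 0.61 with no ZBED2 siRNA, −0.09 with siZBED2-1 and 0.41 with siZBED2-2 (log2 ratios of mean CPM), with the other sign on siZBED2-1. PSME3 was not called, with 139 and 118 CPM under siControl and 153 and 95.0 CPM under siFOXA1.

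In the SCaBER core 4 of 7 beta genes and 2 of 7 alpha genes were called higher over the 3 states and none lower. PSMB7, the trypsin-like subunit, was at 239 and 227 CPM under siControl and 397 and 423 CPM under siFOXA1, a change of 0.80 (SE 0.13, edgeR adjusted p = 1.9e-05). Over all SCaBER libraries PSMB7 ranged from 205 to 302 CPM (median 239) in the 6 libraries without the FOXA1 siRNA and 296 to 423 CPM (median 352) in the 6 with it, and these ranges overlapped, with siZBED2-1 replicate 2 at 302 CPM. Its change over the 3 states was 0.55 (SE 0.07, edgeR adjusted p = 6.0e-07). PSMB5 was at 260.4 and 259.7 CPM under siControl and 357 and 288 CPM under siFOXA1, a difference not called unless siFOXA1 replicate 2 was left out (0.29, SE 0.13, edgeR adjusted p = 0.12 with it, 0.43 and 0.043 without it). PSMB5 was called over the 3 states (0.30, SE 0.07, edgeR adjusted p = 0.0027). PSMB6, at 230.5 and 208 CPM under siControl and 276 and 275 CPM under siFOXA1, was called over the 3 states (0.26, SE 0.08, edgeR adjusted p = 0.012) but not without siFOXA1+siZBED2-2 replicate 2 (0.19, adjusted p = 0.10).

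PSMA4, an alpha subunit gene on chr15:78540405-78552417, was at 221 and 259 CPM under siControl and 394 and 392 CPM under siFOXA1, a change of 0.69 (SE 0.13, edgeR adjusted p = 1.7e-04). The 6 libraries with the siRNA (288 to 394 CPM) were all above the 6 without it (221 to 283 CPM). PSMA1 was called over the 3 states (0.34, SE 0.11, edgeR adjusted p = 0.017) and, with the batch as a block, under siFOXA1 (0.50, adjusted p = 0.020), and the block also added PSMA5 over the 3 states (0.32, adjusted p = 0.017). PSMA1 was called over the 3 states in 9 of the 12 fits that left out 1 library, and its adjusted p was highest without siFOXA1 replicate 2 (0.11 in edgeR).

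Of the SCaBER cap genes none of 6 ATPases was called in either contrast, and among the 11 non-ATPase genes PSMD2 was called higher (0.17, SE 0.06, edgeR adjusted p = 0.038) and PSMD8 lower (−0.22, SE 0.08, edgeR adjusted p = 0.042) over the 3 states. Both, like PSMB1 (0.21) and the base chaperone PSMD10 (0.42), were called in 3 or 4 of the 12 fits that left out 1 library. PSMG2 fell from 36.1 and 53.8 CPM under siControl to 23.7 and 26.9 CPM under siFOXA1 (−0.84, SE 0.25, edgeR adjusted p = 0.014), and over the 12 libraries it ranged from 36.1 to 59.0 CPM (median 46.5) in the 6 libraries without the FOXA1 siRNA and 23.7 to 35.4 CPM (median 28.7) in the 6 with it, again without overlap (−0.66, SE 0.14, edgeR adjusted p = 6.0e-04). The siFOXA1 call of PSMG2 was lost without siControl replicate 2 (adjusted p = 0.33 in edgeR) or siFOXA1 replicate 1 (adjusted p = 0.10 in edgeR). Its partner PSMG1 was at 34.99 and 50.6 CPM under siControl and 23.9 and 28.7 CPM under siFOXA1 (−0.72, SE 0.25, edgeR adjusted p = 0.038), called in 1 of the 4 fits that left out 1 library, with an adjusted p of 0.46 in edgeR without siControl replicate 2.

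Libraries with and without the siRNA did not overlap for PSMA4 and PSME4, which were higher with it, where 3.4% of all genes were, and for PSMG2, which was lower, where 3.35% of all genes were. Set against the other 5 libraries, without the one labelled siZBED2-1 replicate 2, this held for PSMA4, PSMB5, PSMB7 and PSME4 on the higher side, where 4.28% of all genes were, and PSMG2 on the lower, where 4.19% were. Over the 3 states PSMA4, PSMB5, PSMB7, PSME1, PSME2, PSME4 and PSMG2 were called in each of the 12 fits without 1 library, and 9 calls were left without siFOXA1+siZBED2-2 replicate 2. For siFOXA1, PSMA4, PSMB7, PSME1, PSME2 and PSME4 were called in each of 4 such fits. With library totals alone SCaBER had 6 higher and 5 lower siFOXA1 calls and 9 and 2 over the 3 states, and on log2(TPM + 1) it had 5 and 3 (median over all genes −0.13) and 6 and 3. Of all genes called in these 2 contrasts, 39.9% and 42.5% were higher with library totals alone. On log2(TPM + 1) the shares were 31.2% and 35.7%, against 48.9% and 50.2% with TMM. With the batch as a block siFOXA1 gave 7 higher and 3 lower calls, adding PSMA1 and PSMG4 (−0.70, adjusted p = 0.049).

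**Figure D3:**
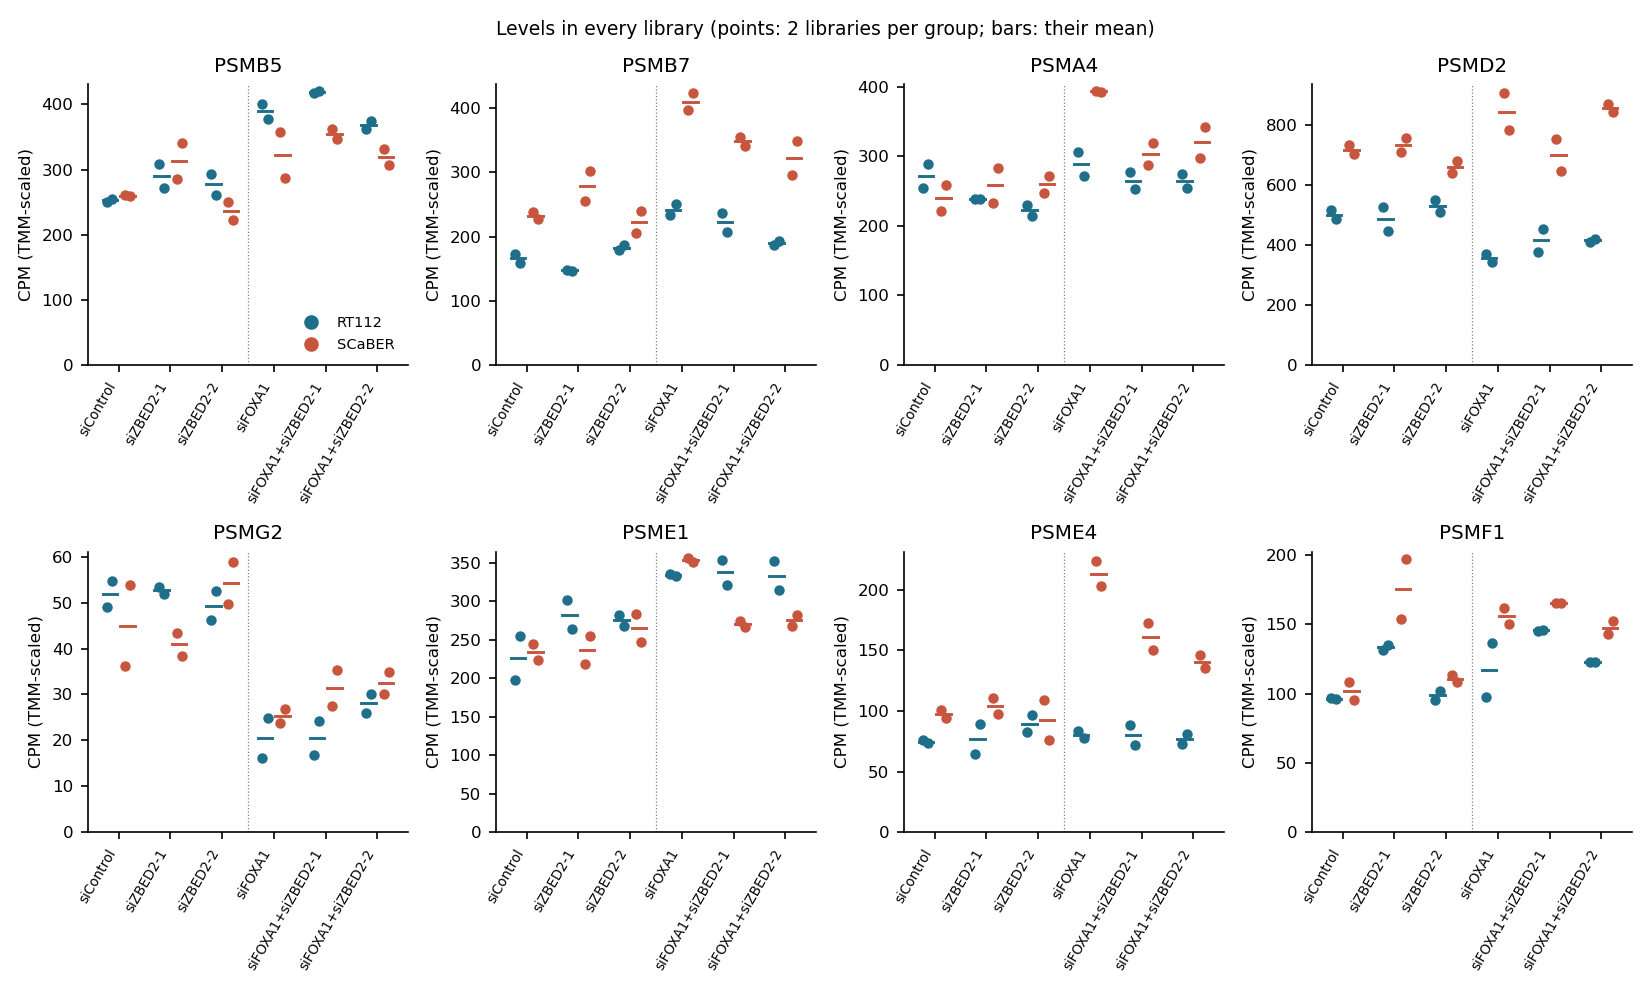
CPM (vertical axis) in each of the 24 libraries for PSMB5, PSMB7, PSMA4, PSMD2, PSMG2, PSME1, PSME4 and PSMF1, by line and treatment, with 1 point per library and a bar at the mean of 2. PSMG2 is lower in every library with the FOXA1 siRNA than in any without it in both lines, and PSME4 rises in SCaBER from 76.2 to 110.4 CPM without the siRNA to 135 to 224 with it but stays between 64.6 and 97.1 CPM in RT112.

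Side by side, 6 members were called higher over the 3 states in both lines (PSMB1, PSMB5, PSMB6, PSMB7, PSME1 and PSME2), 2 lower in both (PSMD8 and PSMG2) and 1, PSMD2, in opposite directions, of 21 called in either. Of the 11763 genes that both fits tested, 7.12% had a higher call in both lines, 7.52% a lower call in both and 0.68% calls in opposite directions. Without the library labelled SCaBER siZBED2-1 replicate 2, PSMB1 and PSMD8 were no longer shared calls, and PSMD2 was no longer called in opposite directions. The shares of all genes for that fit are not given here. The libraries of the 2 lines are separate, but a call in 1 line and none in the other does not show that the lines differ, so the siFOXA1 change itself was compared between them. This test called 2 members, with 2.58% of all genes called. For PSMD2 the change was −0.51 in RT112 and 0.22 in SCaBER, a difference of −0.73 (SE 0.17, edgeR adjusted p = 0.013). For PSME4 it was 0.10 in RT112 and 1.11 in SCaBER, a difference of −1.02 (SE 0.26, edgeR adjusted p = 0.022). When 1 of the 8 libraries was left out, the differences ran from −0.83 to −0.62 for PSMD2 and from −1.09 to −0.95 for PSME4, but no member was called without RT112 siControl replicate 1, RT112 siFOXA1 replicate 2, SCaBER siControl replicate 2 or SCaBER siFOXA1 replicate 1, and PSME4 was also not called without RT112 siControl replicate 2. With the batch as a block PSMA4 was called as well (−0.64, adjusted p = 0.023).

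Summed over the 14 tested core genes, PSMA1 to PSMA7 and PSMB1 to PSMB7, the core transcripts were higher in all libraries with the FOXA1 siRNA. In RT112 the sum was 3570.5 to 3697 CPM with the siRNA and 2993 to 3480.4 CPM without it, and in SCaBER 3789.8 to 4199 and 3359.7 to 3748 CPM. On CPM of the non-mitochondrial counts, without TMM, the sums did not overlap either, at 4235 to 4466 against 3673 to 4142 in RT112 and 4309 to 4693 against 3864 to 4212 in SCaBER. On CPM of all counts, without TMM, they overlapped in RT112 (3397 to 3535 against 3051 to 3737) and not in SCaBER (3812 to 4114 against 3401 to 3760.1). In TPM they overlapped in both lines. The 17 ATPase and non-ATPase cap genes summed to 3565 to 3922 CPM with and 3803 to 4211 CPM without the siRNA in RT112, and to 4149.8 to 4698 and 3938 to 4618 CPM in SCaBER, with overlap in both lines.

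**Figure D4:**
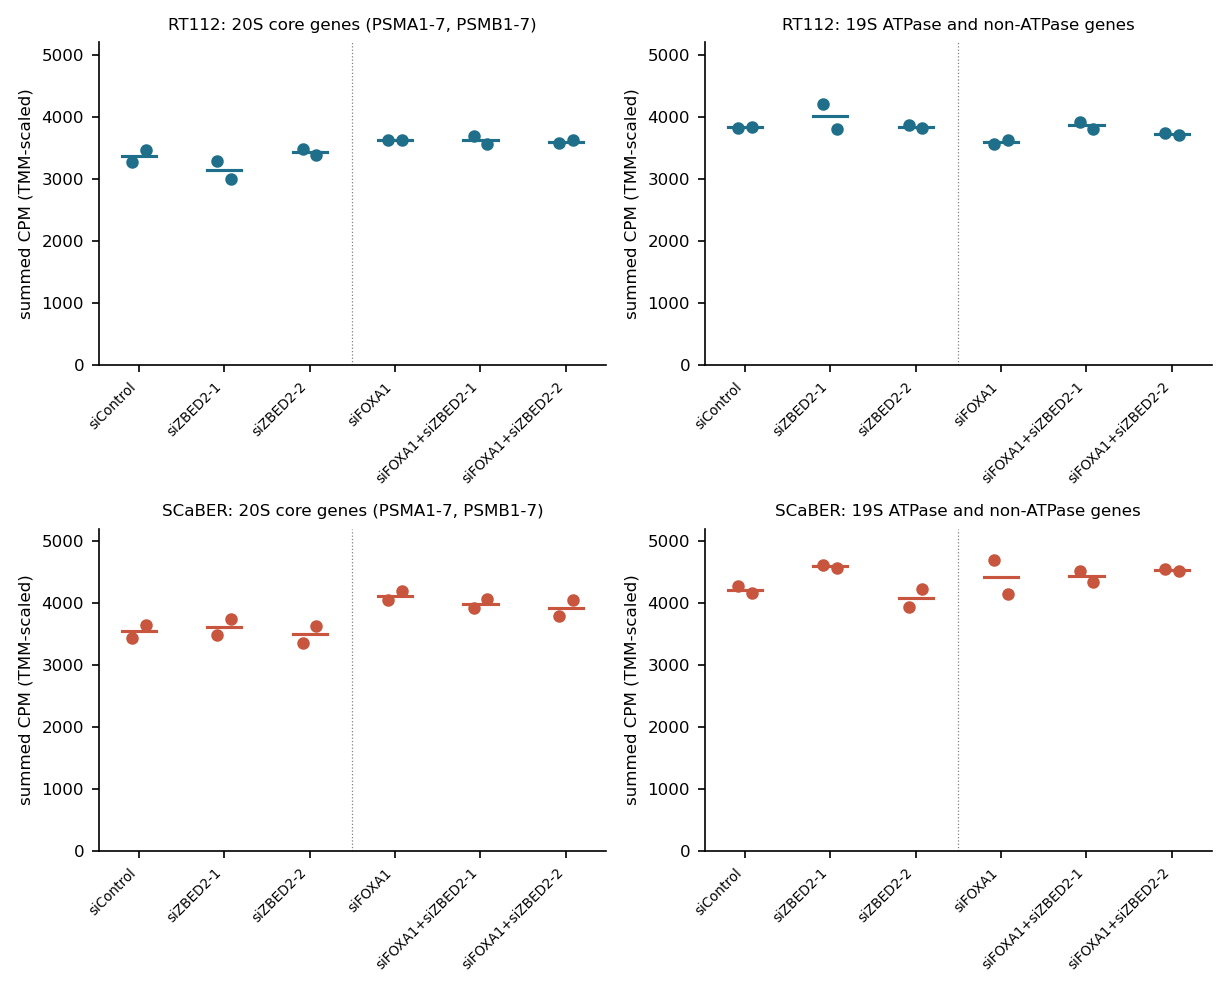
Summed CPM (vertical axis) of the 14 core genes and of the 17 cap genes in each library, by line and treatment, 1 point per library. The core sum with the FOXA1 siRNA lies above every library without it in both lines, while the cap sums overlap.

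Few members were called with the ZBED2 siRNAs on their own, where 0.166% to 8.8% of all genes were called. These low counts are therefore not read as a result about the proteasome genes. In RT112 siZBED2-1 called PSMA3 lower and PSMA1 higher, 2 of 43 members where 8.8% of all genes were called. PSMA3 was at 158 and 151 CPM under siControl and 90.4 and 106 CPM under siZBED2-1 (−0.65, SE 0.17, edgeR adjusted p = 0.012). PSMA1 was at 91.9 and 90.8 CPM under siControl and 124 and 140.1 CPM under siZBED2-1 (0.53, SE 0.17, edgeR adjusted p = 0.049). Neither call held in all 4 fits that left out 1 library, with adjusted p-values up to 0.15 and 0.35 in edgeR, and PSMA3 overlaps the antisense gene PSMA3-AS1. The second ZBED2 siRNA called no member in RT112 by edgeR or DESeq2, with 5 members at an unadjusted p below 0.05 and 0.166% of all genes called.

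In SCaBER siZBED2-1 called 1 member, PSMF1, where 4.65% of all genes were called. PSMF1 was at 108 and 95.7 CPM under siControl, 154 and 197 CPM under siZBED2-1 (0.76, SE 0.15, edgeR adjusted p = 0.0011) and 113 and 108 CPM under siZBED2-2. Without the library labelled siZBED2-1 replicate 2, which was the higher of the pair, the difference was 0.58 and not called (adjusted p = 0.089 in edgeR). The second ZBED2 siRNA called no member in SCaBER by edgeR or DESeq2 and none had an unadjusted p below 0.05, beside 0.625% of all genes called.

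Adding a ZBED2 siRNA to siFOXA1 was read against siFOXA1 alone. In SCaBER the mean of both double knockdowns against siFOXA1 called PSME4 and PSME1 lower, 2 of 43 members (4.65%), beside 3.84% of all genes, and did not call PSME2, PSME3 or PSMF1. PSME4 changed by −0.49 (SE 0.13, edgeR adjusted p = 0.028), from 224 and 203 CPM to the values of 135 to 172 CPM given above, which stayed above the siControl libraries. PSME1 changed by −0.37 (SE 0.11, edgeR adjusted p = 0.047), from 357 and 352 CPM to 275 and 267 CPM with siZBED2-1 and 268 and 283 CPM with siZBED2-2. Neither was called in all 6 fits that left out 1 library, with adjusted p-values up to 0.17 and 0.23 in edgeR. With the batch as a block there were 4 calls, PSMA4 (−0.33, adjusted p = 0.027) and PSMD10 (−0.66, adjusted p = 0.044) being added.

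The corresponding interaction, which asks whether the ZBED2 siRNAs act differently with and without siFOXA1, called no SCaBER member in edgeR, with 8 at an unadjusted p below 0.05 and 2.29% of all genes called. DESeq2 called 1, PSME1 (−0.46, adjusted p = 0.032), and without the library labelled siZBED2-1 replicate 2 edgeR called none. In RT112 the double knockdowns against siFOXA1 called no member by edgeR or DESeq2 (1 at an unadjusted p below 0.05, 1.96% of all genes called), and neither did the interaction (1 at an unadjusted p below 0.05, 0.611% of all genes called). ZBED2 was already at 5.46 and 1.52 CPM under RT112 siFOXA1 alone. It was at 1.91 and 1.42 CPM in siFOXA1+siZBED2-1 and 2.65 and 0.852 CPM in siFOXA1+siZBED2-2. Little ZBED2 was left to lower, so these RT112 comparisons say little about its added loss. In RT112, PSMG2 was at 16.8 and 24.1 CPM and 26.04 and 30.02 CPM in the double knockdowns, beside 16.2 and 24.8 CPM under siFOXA1.

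The interferon-linked catalytic genes were read beside the members. PSMB10 had 0 to 9 counts per library, too few to test, and its highest values were 1.41 CPM in RT112 and 2.04 CPM in SCaBER, both under siFOXA1. PSMB8 stayed at or below 12.9 CPM in both lines. PSMB9, left out of the members, was at 9.61 and 4.42 CPM in RT112 siControl and 71.3 and 80.0 CPM in SCaBER siControl (3.45, SE 0.47, edgeR adjusted p = 4.3e-07). In SCaBER PSMB9 rose to 152 and 156 CPM under siFOXA1 (1.01, SE 0.17, edgeR adjusted p = 2.7e-05) and was at 94.1 and 86.6 CPM and 92.0 and 88.8 CPM in the double knockdowns (−0.76, SE 0.14, edgeR adjusted p = 6.2e-04). In that line PSMB9, PSME1 and PSME4 each had their 2 highest libraries under siFOXA1 alone. This was not particular to them, as the core genes PSMA4 and PSMB7 also had their highest SCaBER library there.

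Around the proteasome, 36 genes were listed and all were tested, namely its bound factors, ubiquitin shuttles, ubiquitin supply, the NFE2L1 pathway, and PSMB8 and PSMB9. In RT112 siFOXA1 called 2 higher and 3 lower, beside 11.3% and 11.9% of all genes. The RT112 3-state contrast called 8 and 5, beside 16.7% and 17.0% of all genes. VCP, the ubiquitin segregase, and its cofactor NSFL1C were the 2 higher (0.37 and 0.52), and UCHL5, a deubiquitinase of the cap, and RPS27A, a ubiquitin gene, had the smallest p-values of the lower (−0.78 and −0.38). In SCaBER siFOXA1 called 6 higher, with the smallest p-values for PSMB9 and the ubiquitin-activating enzyme UBA6 (0.70), and 2 lower, the proteasome-binding PITHD1 (−0.99) and the stress factor NFE2L2 (−0.64). Of all genes 8.71% were called higher and 9.12% lower by SCaBER siFOXA1. The 3-state contrast called 8 and 5 of the listed genes in SCaBER, beside 12.1% and 12.0% of all genes. With 1 library left out, adjusted p-values in edgeR reached 0.17 for NSFL1C, 0.24 for VCP, 0.10 for UCHL5 and 0.098 for RPS27A in RT112 and 0.069 for PITHD1 in SCaBER, while PSMB9, UBA6 and NFE2L2 stayed at or below 0.037. NFE2L1 was not called under siFOXA1, at 0.12 (SE 0.21, edgeR adjusted p = 0.73) in RT112 and −0.39 (SE 0.19, edgeR adjusted p = 0.18) in SCaBER. Over the 3 states it was 0.18 (SE 0.12, edgeR adjusted p = 0.27) in RT112 and −0.31 (SE 0.11, edgeR adjusted p = 0.041) in SCaBER, the last called lower, and so in 5 of the 12 fits that left out 1 library. These are transcript levels and not the protein's.

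The promoters of 4 members are shown because these genes had the smallest p-values over the 3 states in each direction among members with an entry, PSME4 and PSMB5 on the higher side and PSMG2 and PSMD8 on the lower. Each is the 250 bases before the first listed RefSeq start on GRCh38.p14, read 5′ to 3′ on the gene's strand; PSMB5 and PSMG2 have another start listed. PSME4 lies on the minus strand (chr2:53970994-53971243), PSMB5 on the minus strand (chr14:23035221-23035470), PSMG2 on the plus strand (chr18:12658488-12658737) and PSMD8 on the plus strand (chr19:38374321-38374570). Capitals mark matches, on either strand, to the motifs searched.
PSME4: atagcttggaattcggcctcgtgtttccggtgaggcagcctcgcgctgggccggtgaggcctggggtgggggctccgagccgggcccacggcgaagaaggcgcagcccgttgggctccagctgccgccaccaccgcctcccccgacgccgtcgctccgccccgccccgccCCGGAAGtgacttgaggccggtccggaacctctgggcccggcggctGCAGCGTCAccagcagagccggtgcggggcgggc
PSMB5: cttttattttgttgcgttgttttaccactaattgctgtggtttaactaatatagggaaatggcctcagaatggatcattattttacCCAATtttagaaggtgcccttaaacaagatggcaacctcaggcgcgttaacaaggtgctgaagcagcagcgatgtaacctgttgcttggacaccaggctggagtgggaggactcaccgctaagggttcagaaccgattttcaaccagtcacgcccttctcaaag
PSMG2: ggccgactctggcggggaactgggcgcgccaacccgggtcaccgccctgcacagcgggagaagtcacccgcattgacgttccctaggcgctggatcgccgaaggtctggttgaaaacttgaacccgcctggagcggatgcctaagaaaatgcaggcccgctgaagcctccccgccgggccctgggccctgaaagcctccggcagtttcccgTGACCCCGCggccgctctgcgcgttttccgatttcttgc
PSMD8: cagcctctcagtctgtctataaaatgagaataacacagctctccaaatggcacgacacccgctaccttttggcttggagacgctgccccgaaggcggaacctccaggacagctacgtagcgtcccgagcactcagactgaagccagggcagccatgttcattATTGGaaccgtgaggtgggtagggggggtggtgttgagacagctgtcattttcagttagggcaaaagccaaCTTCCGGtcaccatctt
PSME4 holds an ETS match beginning at −80 from the start and an element of the kind NFE2L1 binds at −34, PSMG2 holds such an element at −39, PSMB5 holds an NF-Y match at −164, and PSMD8 holds an NF-Y match at −88 and an ETS match at −17. The NFE2L1-type element stands both in PSME4, which rose in SCaBER, and in PSMG2, which fell in both lines. Whether any of these matches has a part in the changes was not tested.

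Promoters were found for 40 of the 46 members among 27305 RefSeq promoters. TGACNNNGC, the element that NFE2L1 can bind, was in 10 members (25%, against 11.03% of all promoters), among them PSME1 and PSME2, which stand 4402 bases apart on chromosome 14. CCAAT, bound by NF-Y, was in 17 (42.5% against 33.04%). CCGGAAG, bound by ETS factors, was in 10 (25% against 8.82%). TTTCNNTTT, the core of the interferon-stimulated response element, was in 6 (15.0% against 9.28%), PSME2 and PSMB10 among them. TGTTTAC, bound by forkhead factors such as FOXA1, was in PSMB2, called in neither line with the FOXA1 siRNA, and in PSMD5, called in RT112 over the 3 states (5.0% against 2.98%). These are counts of letters in 250-base windows, both strands read, and no match speaks only of those windows.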

How the data were processed

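The members, lists and tests were chosen with earlier results of these data known. RNA was sequenced as single reads from a 3′ kit (Lexogen QuantSeq FWD). Per the deposited settings and processing notes, the authors used TrimGalore 0.6.2 for trimming (quality of at least 20, length of at least 10), raw-qc 2.1.0 for quality checks, aligned with STAR 2.6.1a to hg38 and used GENCODE 29, with strandedness set to automatic, whereas the study's text names hg19. They deposited raw counts per gene, used for every main test, and TPM values, which divide by transcript length although 3′ reads do not grow with it. How TPM were made is not given in the sources used here.

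Counts were tested with edgeR 4.0.16 (R 4.3.3, quasi-likelihood, TMM, low-count filter at 10 per library and 15 in all), on the 12 libraries of each line (13264 and 13129 genes) or all 24 (14823 genes), with Benjamini-Hochberg adjustment. The SE is the change divided by the root of F. DESeq2 1.42.0, limma 3.58.1 on log2(TPM + 1), other scalings, no filter, a replicate block and omission of single libraries were alternatives, and leaving out mitochondrial genes was added after seeing the data. The scripts were tested on simulated data. Replicate numbers are experiment batches by label, so they pair libraries. Deviations of same-numbered libraries correlated at 0.0349 on average in RT112 and 0.0274 in SCaBER, and none of 15 pairs per line passed 0.1. A floor of 3 counts was 0.525 to 0.665 CPM in RT112 and 0.474 to 0.679 CPM in SCaBER, for counting error only. The biological spread was 25.8% (RT112) and 21.6% (SCaBER) of a gene's level. No 2 libraries of a group agreed within sampling noise. Named genes were the catalytic, activator and inhibitor genes, the 3 smallest p-values in each direction for FOXA1 contrasts, the smallest for others, members that differed between lines, 2 listed pathway genes per direction, PSMB9, PSMB8 and NFE2L1, with other called members by their change. PSMB7 has no promoter entry. Pseudogenes such as PSMC1P1 (978 counts) and PSME2P6 (769 counts) could share reads with their parent genes. The genome in the reference folder is another build and was not used.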

Additional observations from a re-analysis of the deposited data

Results flagged for a closer look

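Of the genes named here 3 responded to siFOXA1 differently in the 2 lines by a test of the difference itself, given as the log2 change in RT112 minus that in SCaBER. PSMD2, a scaffold subunit of the cap, differed by −0.7269 (edgeR adjusted p = 0.013), with 517 and 487 CPM under siControl and 371 and 342 CPM under siFOXA1 in RT112. In SCaBER PSMD2 was at 735 and 703 CPM under siControl and 908 and 784 CPM under siFOXA1. PSME4, the gene of PA200, differed by −1.0208 (edgeR adjusted p = 0.022), with 75.8 and 73.6 CPM under siControl and 83.7 and 77.5 CPM under siFOXA1 in RT112. In SCaBER PSME4 was at 101 and 93.9 CPM under siControl and 224 and 203 CPM under siFOXA1. RPS27A, a gene that encodes ubiquitin fused to a ribosomal protein and no member, differed by −0.6732 (edgeR adjusted p = 0.0090), with changes of −0.38 in RT112 and 0.28 in SCaBER. The share of mitochondrial transcripts was higher with the siRNA in RT112 beside these values. With mitochondrial genes left out before scaling the PSMD2 and PSME4 differences were still called. That fit changes the scaling only, and the part of the mitochondrial shift in these differences was not tested. With 1 of the 8 libraries left out, PSMD2 was called in 4 of the 8 fits, PSME4 in 3 and RPS27A in 8, with edgeR adjusted p-values up to 0.079, 0.10 and 0.049. Groups of 2 libraries are too small for a search for single deviating libraries.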

How the results depend on the processing

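Where 1 library of a pair was left out, the lone sample was taken to vary like the other groups. Such fits called 12 to 15 members for the FOXA1 siRNA over 3 states in RT112 and 9 to 15 in SCaBER, 4 to 8 and 6 to 9 for siFOXA1, 10 to 14 between the lines and 0 to 2 for the line difference. They called 0 to 1 for siZBED2-1 in each line, 0 to 2 for the SCaBER double knockdowns, 0 to 1 for the SCaBER interaction, and 0 in every fit for siZBED2-2 in each line and for the RT112 double knockdowns and interaction. On log2(TPM + 1) limma called 10 members in place of 16 over 3 states in RT112, 9 in place of 14 in SCaBER, 5 in place of 8 for RT112 siFOXA1, 1 in place of 2 for the line difference, and 0 in place of 2 for RT112 siZBED2-1 and for the SCaBER double knockdowns. For these last 2, library totals alone and no filter on low counts each called 1, and the replicate block called 4 SCaBER members for the double knockdowns. DESeq2 called 1 in place of 0 for the SCaBER interaction. On the TPM scale the RT112 3-state changes of PSMD13 and NSFL1C reversed to −0.010 and −0.017. The cause was not tested. The replicate block added the calls named in the text and removed no call of a member. Genes with few counts, such as PSMD9 and PSMA6, are limited by depth.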
